A study of Mus musculus with 4 samples.

Results

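The Notch pathway was followed through mitral valve development in 10 genes of the 27998 in the deposited count tables: the receptors Notch1, Notch2 and Notch4, the ligands Dll4, Jag1 and Jag2, and the target transcription factors Hey1, Hey2, Heyl and Hes1. They were chosen by name, for their place in the pathway, and all 10 have a row in each of 4 single-cell libraries. The cells came from C57BL/6 embryos and newborns carrying Tie2-Cre and the Rosa26 tdTomato reporter. Dissection took the atrioventricular canal of E9.5 embryos (1 library), and the mitral valve of E16.5 embryos (1 library) and of newborns, P0 (2 libraries). At least 60 embryos were pooled for each stage, so a library is a pool and no animal can be told from another, and all groups share the Cre, the reporter, a 5 or 10 min enzyme digestion and a sort for tomato. Tie2-Cre marks endothelium and what descends from it, and also blood cells.

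Notch receptors are single-pass membrane proteins that are cut when a Delta-like or Jagged ligand on a neighbouring cell binds them. The freed intracellular domain joins the DNA-binding protein RBPJ and switches on target genes, among them the Hes and Hey repressors. In the embryonic heart the pathway is known for its part in the endocardium of the atrioventricular canal, where endocardial cells turn into the mesenchyme of the cushions, and Hey1 and Hey2 are known as markers of atrial and ventricular myocardium that border the canal.

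The genes lie apart in the GRCm38 genome, and each is protein-coding in the GENCODE vM21 annotation. Among the receptors, Notch1 (ENSMUSG00000026923) is at chr2:26457903-26516663 on the minus strand, Notch2 (ENSMUSG00000027878) at chr3:98013527-98150361 on the plus strand and Notch4 (ENSMUSG00000015468) at chr17:34564268-34588503 on the plus strand. Of the ligands, Dll4 (ENSMUSG00000027314) is at chr2:119325784-119335962 on the plus strand, Jag1 (ENSMUSG00000027276) at chr2:137081456-137116644 on the minus strand and Jag2 (ENSMUSG00000002799) at chr12:112907819-112929776 on the minus strand. The targets are Hey1 (ENSMUSG00000040289) at chr3:8663359-8667256, minus strand, Hey2 (ENSMUSG00000019789) at chr10:30832359-30842801, minus strand, Heyl (ENSMUSG00000032744) at chr4:123233556-123249875, plus strand, and Hes1 (ENSMUSG00000022528) at chr16:30064384-30067796, plus strand.

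Dll4 and Hey2 are the ligand and the target that divided the endothelial and cushion cells most plainly, so the 250 bases before their RefSeq start sites are shown (GRCm38.p6, read 5′ to 3′ on the gene's own strand: Dll4 at chr2:119325534-119325783, plus strand, and Hey2 at chr10:30842784-30843033, minus strand). The core letters TGGGAA that RBPJ is known to bind were searched on both strands, and capitals mark the match, which on the opposite strand reads TTCCCA.
Dll4: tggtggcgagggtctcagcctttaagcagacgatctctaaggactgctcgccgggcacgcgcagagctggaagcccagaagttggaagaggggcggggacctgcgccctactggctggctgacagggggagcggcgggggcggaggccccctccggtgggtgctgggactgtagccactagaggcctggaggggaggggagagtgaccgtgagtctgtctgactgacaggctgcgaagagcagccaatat
Hey2: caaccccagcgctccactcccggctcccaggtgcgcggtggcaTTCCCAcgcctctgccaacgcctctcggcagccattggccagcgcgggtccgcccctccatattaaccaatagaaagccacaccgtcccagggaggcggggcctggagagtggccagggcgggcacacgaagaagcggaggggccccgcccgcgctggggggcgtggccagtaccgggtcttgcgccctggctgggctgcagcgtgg
The Hey2 window held 1 match, which begins 207 bases before the start, and the Dll4 window held none of these letters. Windows of this length hold the motif on either strand in 7094 of 32851 genes (21.6%). Of the 10 genes, 7 had a window in the RefSeq table, and Hes1, Hey1 and Heyl had none. Among the 7, the Hey2 window alone held the motif.

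After filtering, the E9.5 library kept 1192 cells, the E16.5 library 311, and P0 replicates 1 and 2 kept 282 and 176, of 1206, 452, 291 and 211 deposited. The deposited totals were 30819374, 1021188, 1836768 and 1086623 unique molecular identifiers (UMIs, each a counted RNA molecule), and the median kept cell held 24564.5, 2357, 5159.5 and 4433. The E16.5 library was thus the shallowest per cell. Each library was clustered alone with the Notch genes left out, and clusters took a name such as endothelial-like from marker lists; the names below stand for such clusters. At E9.5, 87 cells were endocardial (the endothelial list), 104 cushion, 507 cardiomyocyte, 126 posterior heart field, 26 epicardial and 243 erythroid. In the E16.5, P0 replicate 1 and P0 replicate 2 libraries, the endothelium of the valve surface held 71, 47 and 47 cells, capillary or coronary endothelium 60, 60 and 44, and interstitial cells 147, 74 and 40. A further pericyte cluster held 5 cells at E16.5 and had no counterpart at P0. Clusters that took macrophage markers held 26 and 12 cells in P0 replicates 1 and 2. That of replicate 1 was led mostly by cell-cycle genes and held the endothelial list at 55.9 per 10000 (0.754 in that of replicate 2). It held Notch1 at 1.41 (31 UMIs), against 0.108 (1 UMI) in replicate 2. Neither cluster was tested, and that of replicate 1 entered the likeness of patterns described below. Unnamed clusters took 8.47% of the kept UMIs of E9.5, 4.36% of E16.5, and 24.8% and 16.3% of the P0 replicates.

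The endothelial marker list summed to 46.0 UMIs per 10000 in E9.5 endocardial cells and 27.6 in cushion cells, against 1.16 in cardiomyocytes. It summed to 65.3, 73.7 and 65.4 per 10000 in surface endothelium at E16.5 and in P0 replicates 1 and 2, and to 9.01, 6.62 and 6.02 in interstitial cells. The interstitial list ran the other way, at 113, 152 and 131 per 10000 in interstitial cells and 21.7, 25.0 and 23.4 in the surface. Cardiomyocytes made up 42.5% of the kept E9.5 cells although the sort was for a Tie2-Cre reporter, and whether those cells carried tomato was not tested. Levels below are UMIs of a gene per 10000 UMIs of its class. They are compared between cell types, never between genes, and summed levels cannot tell fewer expressing cells from less RNA in each.

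At E9.5 the endocardium carried the ligand Dll4, the receptors Notch1 and Notch4, and the target Hey1, which cardiomyocytes held at a like level. Cushion cells held Notch1 and Hes1 at levels like those of the endocardium, little Dll4 and more Hey2. There was 1 library, so these are values with exact Poisson 95% intervals, which cover counting error only, and no test. Dll4, the Delta-like ligand of endothelium, stood at 0.254 per 10000 in endocardial cells (52 UMIs, interval 0.19 to 0.334) and at 0.0262 in cushion cells (6 UMIs, 0.00963 to 0.0571), a cushion to endocardial ratio of 0.103 (0.0362 to 0.240). It was found in 31 of 87 endocardial cells (35.6%, exact Clopper-Pearson interval 25.7 to 46.6) and in 5 of 104 cushion cells (4.81%, 1.58 to 10.9). The median cell held 21241 and 22649.5 UMIs in these classes, and with every cell thinned to 2000 UMIs the counts were 6 of 87 and 0 of 104. Erythroid cells, which should lack the gene and held 32399 UMIs in the median cell, had it in 1 of 243. Dll4 therefore stood above the background of free RNA in endocardial cells and, outside the cushion, near it in the other named classes. Cardiomyocytes held 1 UMI, and posterior heart field and epicardial cells held 0, which at a floor of 3 UMIs allows up to 0.0105 and 0.0362 per 10000 (upper Poisson limits 0.0129 and 0.0445).

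Jag1, a Jagged ligand, was highest in the myocardium and mesoderm at this stage. It stood at 0.297 per 10000 in cardiomyocytes (353 UMIs), 0.353 in posterior heart field cells (101 UMIs) and 0.278 in epicardial cells (23 UMIs). In endocardial and cushion cells it stood at 0.0685 (14 UMIs) and 0.0831 (19 UMIs), levels whose intervals overlap. Cardiomyocytes thus held 4.33 times the endocardial level of Jag1 (interval 2.55 to 8.01). Jag2 was scarce, with 19 UMIs in cardiomyocytes, 2 in endocardial, 1 in cushion and 0 in posterior heart field and epicardial cells, and the interval of its cardiomyocyte to endocardial ratio of 1.63 (0.394 to 14.5) includes equality.

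Notch1, the main receptor of endothelium, stood at 0.548 per 10000 in endocardial cells (112 UMIs, interval 0.451 to 0.659) and at 0.455 in cushion cells (104 UMIs, 0.372 to 0.551). The ratio of cushion to endocardium was 0.830 and its interval, 0.629 to 1.09, includes equality. Cardiomyocytes held 0.0101 (12 UMIs), 0.0184 times the endocardial level, and erythroid cells 0.00377 (3 UMIs). Endocardial and cushion cells together therefore held most of the Notch1 of this library, and the receptor did not share the difference seen in Dll4. Notch4, a receptor known mainly from endothelium, was lower in the cushion at 0.0612 (14 UMIs) than in the endocardium at 0.137 (28 UMIs), a ratio of 0.447 (0.217 to 0.878). Notch4 was also counted in posterior heart field cells (21 UMIs) and cardiomyocytes (15 UMIs). Posterior heart field cells held 22.3% of its kept UMIs, beside 9.40% of all kept UMIs of the library. Notch2 had another pattern, highest in posterior heart field cells at 0.318 and at 0.132 and 0.149 in endocardial and cushion cells.

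Among the targets, Hey1 and Hey2 split the endocardium from the cushion in opposite directions. Hey1 stood at 0.543 per 10000 in endocardial cells (111 UMIs) and 0.315 in cushion cells (72 UMIs), a ratio of 0.580 (0.425 to 0.787). Hey1 was not particular to the endocardium. Its cardiomyocyte to endocardial ratio was 1.15, with an interval (0.939 to 1.41) that includes equality. Hey2 stood at 0.0196 in endocardial cells (4 UMIs in 3 of 87 cells) and 0.197 in cushion cells (45 UMIs in 29 of 104 cells), a ratio of 10.1 (3.67 to 38.5). Erythroid cells held 0.00251 per 10000 of Hey2 (2 UMIs), 0.128 times the endocardial level (0.0116 to 0.896). Heyl, another member of the Hey family, was counted 4 times in the endocardium and 13 times in the cushion, and the interval of its ratio (0.897 to 12.2) includes equality. Hes1, a broadly expressed target, did not separate them, at 0.866 (177 UMIs) and 0.905 (207 UMIs) with a ratio of 1.05 (0.851 to 1.28). The highest Hey1 level of any named class was the epicardial one, 1.17 per 10000 (97 UMIs in 25 of 26 cells, with a median of 37249.5 UMIs a cell).

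**Figure D1:**
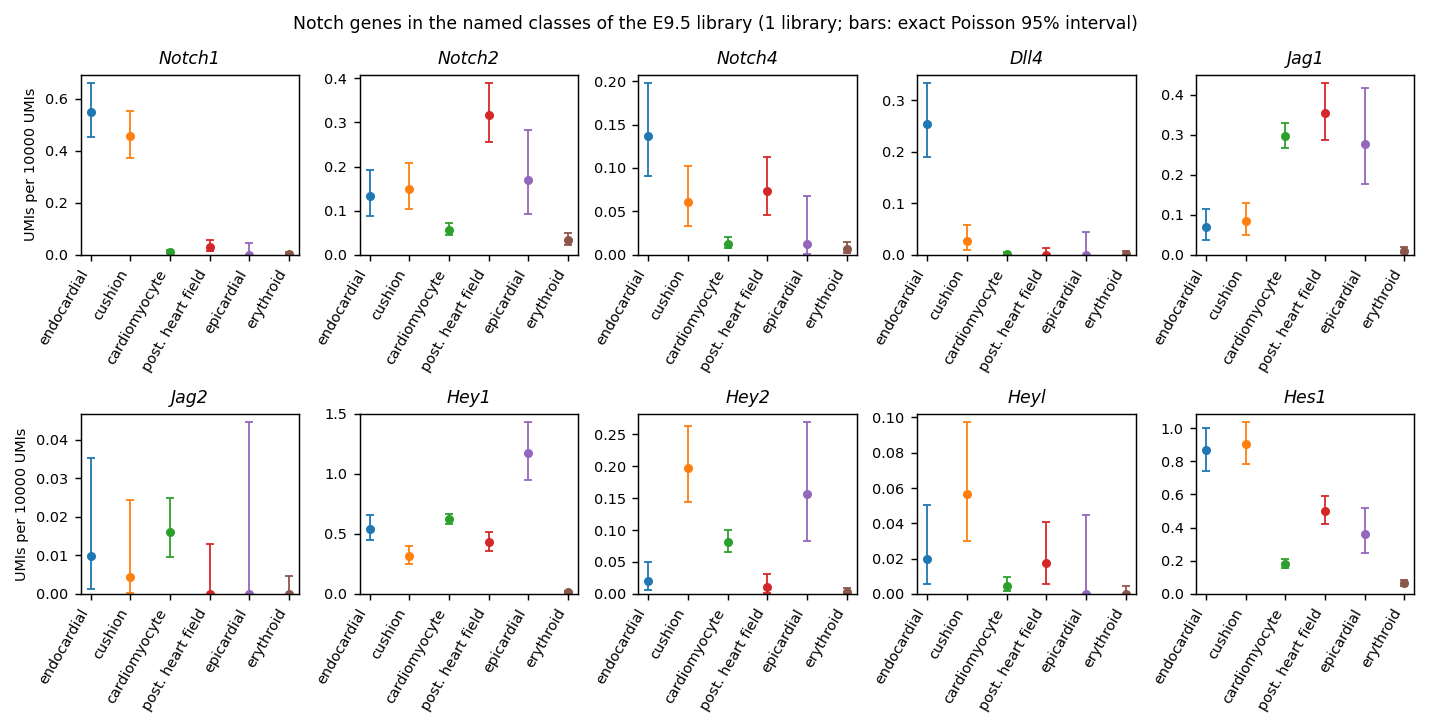
Level of each of the 10 genes in the named cell classes of the E9.5 library, in UMIs per 10000 UMIs of the class; points are the class sums and bars are exact Poisson 95% intervals. Dll4 is high in the endocardial class (0.254) and near 0 elsewhere, Hey2 is higher in the cushion class (0.197) than in the endocardial class (0.0196), and Notch1 is at like levels in both.

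Single cells of the endocardial class held these genes together in part. Notch1 and Dll4 were both counted in 23 of the 87 cells, Notch1 without Dll4 in 34 and Dll4 without Notch1 in 8. Dll4 was counted with Hey1 in 22 cells, Hey1 alone in 26 and Dll4 alone in 9. Notch1 was thus counted in 23 of the 31 cells with Dll4, beside 57 of all 87 cells (65.5%), and Hey1 in 22 of the 31, beside 48 of all 87 (55.2%). In the cushion class Hey1 and Hey2 were found together in 10 cells, Hey1 alone in 21 and Hey2 alone in 19 of 104. These are counts of detection in cells of one library and carry no test.

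The cardiomyocytes of the canal library fell into 5 clusters, and Hey1 and Hey2 lay in different ones. Clusters led by Myh6 and Calca (128 cells) and by Nppa and Casq1 (76 cells) held Hey1 at 1.31 (434 UMIs) and 1.34 per 10000 (221 UMIs). The cluster led by Myl2 and Myh7 (65 cells), genes of ventricular muscle, held Hey1 at 0.169 (23 UMIs), and that led by Actn2 and Myl7 (150 cells) held 0.135 (53 UMIs). The cluster led by Rspo3, Bmp2 and Msx2 (88 cells), of which Bmp2 is a known signal of canal myocardium, held the least Hey1, 0.0604 (10 UMIs). The Nppa-led cluster stood 22.2 times (interval 11.8 to 46.9) and the Myh6-led cluster 21.8 times (11.7 to 45.7) above it.

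Hey2 peaked in the Myl2-led cluster, at 0.381 per 10000 (52 UMIs in 32 of 65 cells, interval 0.284 to 0.499). It stood at 0.0970 in the Actn2-led cluster (38 UMIs) and at 0.0302 in the Bmp2-expressing cluster (5 UMIs), and only 1 UMI was counted in each of the Myh6-led and Nppa-led clusters. The Myl2-led cluster thus held 12.6 times (5.07 to 40.5) the Hey2 of the Bmp2-expressing cluster. Both Hey genes were therefore low in the cluster that expresses Bmp2 and high in separate clusters. Of all 507 cardiomyocytes, 196 held Hey1 without Hey2, 48 Hey2 without Hey1 and 9 both. Since the cells of a cluster were grouped on their own expression, although without the Notch genes, these values describe the clusters and are no test.

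Jag1 and Hes1 varied in the same cells, each in its own way. Jag1 was high in the Myl2-led (0.447), Myh6-led (0.442) and Nppa-led (0.503) clusters and low in the Actn2-led (0.115) and Bmp2-expressing (0.109) clusters. The Myl2-led cluster held 4.11 times the Jag1 of the Bmp2-expressing one. Hes1 was highest in the Myl2-led cluster at 0.498 (68 UMIs) and lowest in the Nppa-led cluster at 0.0242 (4 UMIs), with the other clusters between 0.0817 and 0.212. The ligand was therefore shared by clusters that held opposite Hey genes, while Hes1 went with Hey2 at its upper end.

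**Figure D2:**
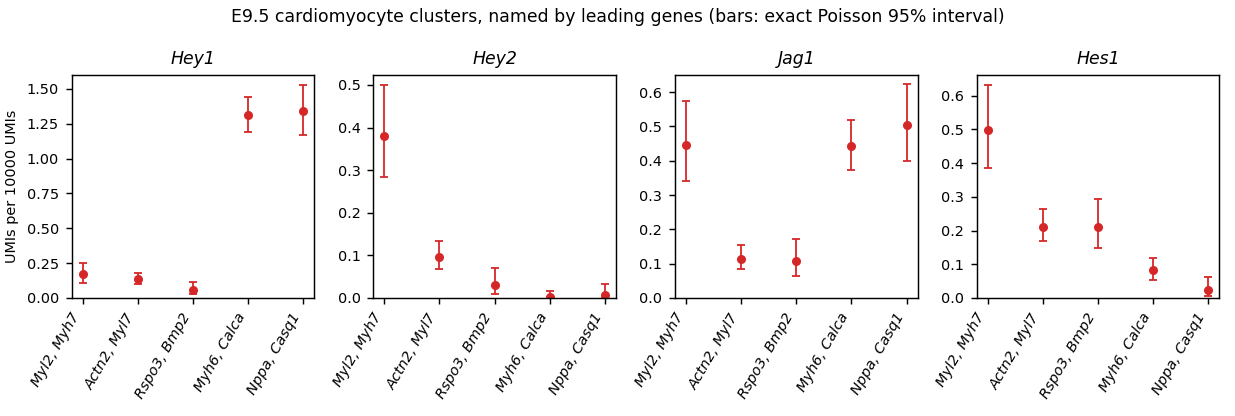
Level of the target and ligand genes in the 5 cardiomyocyte clusters of the E9.5 library, in UMIs per 10000 UMIs of the cluster; points are cluster sums and bars are exact Poisson 95% intervals. Hey1 is high in the Myh6-led (1.31) and Nppa-led (1.34) clusters, Hey2 in the Myl2-led cluster (0.381), and both are low in the cluster led by Rspo3, Bmp2 and Msx2.

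In the mitral valve at E16.5 and P0 the receptors were divided between cell types. Surface endothelium held more Notch1 and Jag1 than interstitial cells did, and interstitial cells held more Notch2 and Heyl. The 2 classes were compared within the 3 valve libraries (E16.5, P0 replicate 1, P0 replicate 2) on summed UMIs, with edgeR's quasi-likelihood test, library as a block and Benjamini-Hochberg adjustment over all genes tested. A gene was called when its adjusted p was under 0.05 and its direction the same in each of the 3 libraries. Of 6179 genes tested, 20.1% were called, and of the 10 Notch genes 7 passed the filter of 10 UMIs in at least 1 sum, with 2 called higher in the surface, 2 called lower and 3 not called. The median log2 fold of the 7 was 0.29, against -0.02 over all genes. Members that passed the filter through one class alone could only differ one way, so the count is no evidence on the pathway as a whole. Of those called, Jag1 passed through the surface alone, and Notch2 and Heyl through interstitial cells alone. Their p-values are not free of that choice. Nothing in GEO's labels says whether separate litters gave the P0 pair. The p-values rest on how the class difference varied over the 3 libraries, E16.5 and P0 together, and part of that may be technical. The fit had 2 residual degrees of freedom, and each gene's spread was taken mostly from all genes together.

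Notch1 in surface endothelium stood at 1.02, 2.16 and 1.87 per 10000 in the E16.5, P0 replicate 1 and P0 replicate 2 libraries, and in interstitial cells at 0.684, 0.599 and 0.613. Every surface value lay above every interstitial value. In the E16.5 library alone the ratio of 1.49 (20 and 25 UMIs) had a counting interval of 0.787 to 2.8, which includes equality. The log2 difference was 1.33 ± 0.30 (SE; edgeR adjusted p = 0.00099). The endothelial marker list was 9.01 per 10000 or less in interstitial cells against 65.3 or more in the surface. The part of endothelial cells or RNA in the Notch1 of the interstitial class was not tested. Jag1, the Jagged ligand, stood at 0.460, 0.597 and 0.436 in the surface and 0.164, 0.156 and 0.223 in interstitial cells, again without overlap (log2 difference 1.46 ± 0.48, adjusted p = 0.0238). The counting interval of its ratio included equality at E16.5 (2.8, 0.891 to 9.57) and in P0 replicate 2 (1.96, 0.564 to 8.54). Without P0 replicate 1 neither gene was called (edgeR adjusted p = 0.107 for Notch1 and 0.340 for Jag1), and without P0 replicate 2 Jag1 was not (0.0666). Neither was called by DESeq2's Wald test (adjusted p = 0.0885 and 0.406), nor by edgeR without the library block (0.0896 and 0.109).

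Notch2 ran the other way. It stood at 0.383, 1.64 and 2.95 per 10000 in interstitial cells (14, 63 and 53 UMIs) and at 0.153, 0.0332 and 0.174 in surface endothelium (3, 1 and 4 UMIs). The values did not overlap, and the log2 difference was -3.88 ± 0.48 (edgeR adjusted p = 3.8e-08), between -4.56 without the E16.5 library and -3.24 without P0 replicate 1. In the E16.5 library alone the surface to interstitial ratio of 0.400 had a counting interval of 0.0738 to 1.43, which includes equality. Heyl, a target known in smooth muscle and mural cells, stood at 0.274, 0.834 and 0.613 in interstitial cells (10, 32 and 11 UMIs) and was not counted in the surface of any library. Over the 3 libraries together, interstitial Heyl stood 13.8-fold above a floor of 3 UMIs set for surface endothelium, with counting error left out. The edgeR adjusted p of the difference was 1.2e-06. Both genes were called in all 13 settings run. In P0 replicates 1 and 2, unnamed clusters held 25.0% and 30.9% of the Notch2 UMIs and 20.45% and 36.8% of those of Heyl. These clusters held 24.8% and 16.3% of all kept UMIs there. At E16.5 they held 5.26% of Notch2 and 0.0% of Heyl, beside 4.36% of all. The pericyte list summed to 5.37, 10.2 and 11.9 per 10000 in interstitial cells and to 84.7 in the 5 pericyte cells at E16.5, which held 2 UMIs of Heyl, 3 of Hes1 and 5 of Notch3. The part of such cells in the Heyl of the interstitial class was not tested.

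The other 3 genes tested were not called between surface and interstitial cells. Hey2 stood at 0.205, 0.398 and 0.218 per 10000 in the surface (4, 12 and 5 UMIs) against 0.0274, 0.104 and 0.0557 in interstitial cells (1, 4 and 1 UMIs), with a log2 difference of 2.04 ± 0.86 (edgeR adjusted p = 0.0916). Hes1 differed by 0.29 ± 0.23 (adjusted p = 0.447) and Hey1 by -0.20 ± 0.65 (adjusted p = 0.881). Dll4, Jag2 and Notch4 reached 10 UMIs in none of these sums. Dll4 and Jag2 had 0 UMIs in interstitial cells of all 3 libraries, and Notch4 had 2, 1 and 1.

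**Figure D3:**
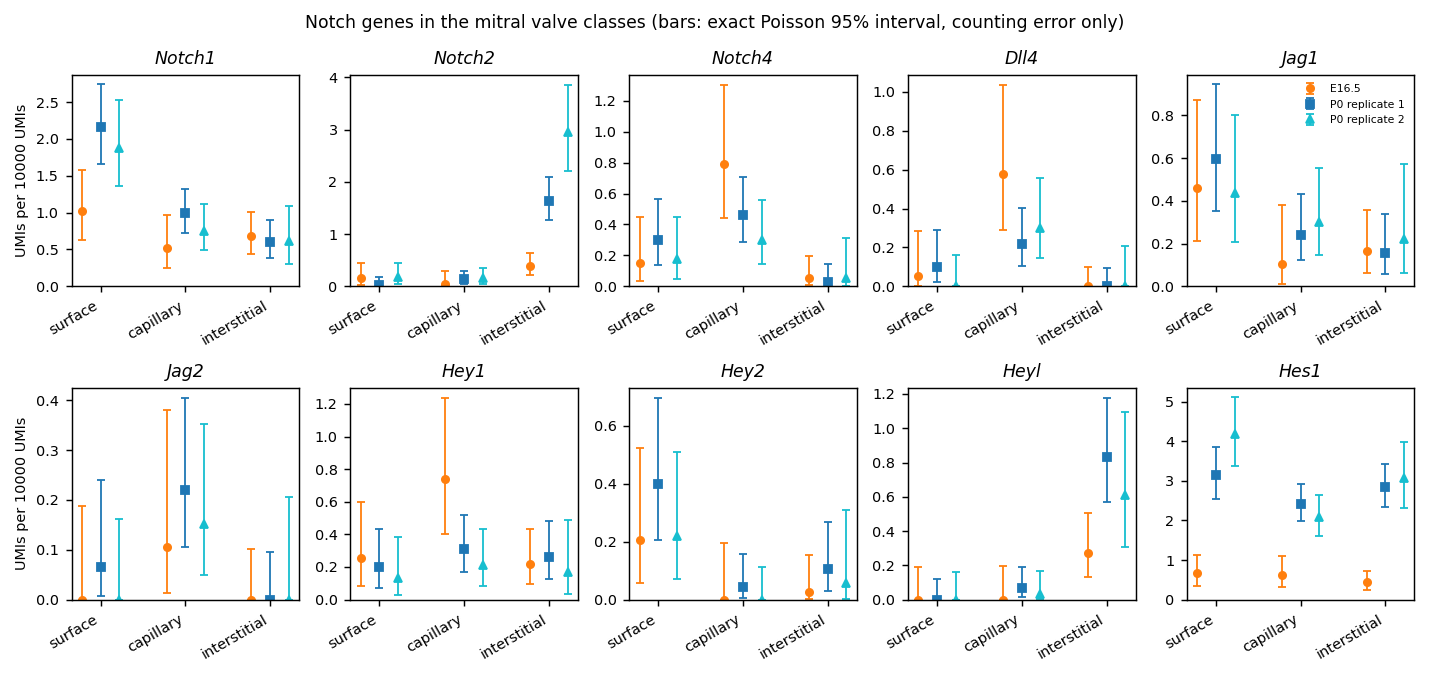
Level of each gene in the surface endothelial, capillary endothelial and interstitial classes of the E16.5 and the 2 P0 mitral valve libraries, in UMIs per 10000 UMIs of the class; points are libraries and bars are exact Poisson 95% intervals. Notch1 is highest in the surface class of each library, Notch2 and Heyl in the interstitial class, and Dll4 in the capillary class.

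The endothelia of the valve were compared next. Capillary endothelium held more Dll4 and less Notch1 and Hey2 than surface endothelium. Of 6299 genes tested, 12.8% were called, and of the 8 Notch genes that passed the filter 1 was called higher in capillaries and 2 lower. Their median log2 fold was 0.21, against 0.01 over all genes. Members that reached the filter in a single class were selected in part by their level there. Dll4 reached it in capillaries alone and Hey2 in the surface alone, so their p-values are not free of that choice. The count and median are therefore no evidence on the pathway as a whole. Dll4 stood at 0.580, 0.22 and 0.302 per 10000 in capillaries at E16.5 and in P0 replicates 1 and 2 (11, 10 and 10 UMIs), and was counted 1, 3 and 0 times in the surface. Its log2 difference was 2.59 ± 0.80 (edgeR adjusted p = 0.0123). Over the summed UMIs, its capillary level was 9.83 times a floor of 3 UMIs set for interstitial cells, where 0 were counted. This leaves out counting error. Notch1 in capillaries stood at 0.527, 0.990 and 0.755, below the surface value of the same library each time (log2 difference -1.16 ± 0.28, adjusted p = 0.00061). The highest capillary value also lay below the lowest surface value. In the E16.5 library alone the capillary to surface ratio of 0.515 had a counting interval of 0.215 to 1.15, which includes equality. Hey2 was counted 0, 2 and 0 times in capillaries and 4, 12 and 5 times in the surface (log2 difference -3.70 ± 1.13, adjusted p = 0.0109).

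The Dll4 and Hey2 calls rested on few molecules, 31 and 4 UMIs of Dll4 and 2 and 21 of Hey2 in capillaries and surface, and that of Notch1 on 80 and 128. None of the 3 was called by DESeq2's Wald test (adjusted p = 0.19 for Dll4, 0.188 for Notch1 and 0.120 for Hey2), nor by edgeR without the library block (0.208, 0.208 and 0.0875). Without P0 replicate 2 none was called (edgeR adjusted p = 0.214, 0.0982 and 0.176). Without P0 replicate 1 Dll4 and Notch1 were not called (0.0844 and 0.0638) and Hey2 did not reach the filter, and without the E16.5 library Dll4 was not called (0.200). The direction was the same in each of these fits, and the Dll4 difference without P0 replicate 1 was 3.99.

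Notch4 stood at 0.790, 0.462 and 0.302 per 10000 in capillaries and at 0.153, 0.299 and 0.174 in the surface. The capillary value was above the surface value in each library, and the log2 difference of 1.18 ± 0.48 was not called (edgeR adjusted p = 0.0866). Jag1 differed by -1.15 ± 0.46 (adjusted p = 0.0823), Hes1 by -0.61 ± 0.25 (0.0831), Hey1 by 1.03 ± 0.53 (0.219) and Jag2 by 2.50 ± 1.32 (0.235). Jag2 was counted 2, 10 and 5 times in capillaries and 0, 2 and 0 times in the surface. Over the summed UMIs, its capillary level was 5.39 times a floor of 3 UMIs set for interstitial cells, with counting error left out. Whether these class differences themselves changed between E16.5 and P0 was tested as an interaction added after the values were seen. It called 0.874% of 6179 genes for surface against interstitial and none of the 7 Notch genes (lowest edgeR adjusted p = 0.318, 2 at an unadjusted p under 0.05). For capillary against surface it called 0.0% of 6299 genes and none of the 8 Notch genes (lowest adjusted p = 0.701, 0 at an unadjusted p under 0.05).

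Each valve class was then compared between E16.5 and P0. Hes1 was lower at E16.5 than at P0 in surface endothelium and in interstitial cells, Notch2 was lower at E16.5 in interstitial cells, and Dll4, Notch4 and Hey1 were higher at E16.5 in capillaries. Each comparison sets 1 library against 2, so only the P0 pair shows spread within a stage, and stage and library cannot be told apart. With 1 residual degree of freedom, each gene's spread was taken mostly from all genes together. A gene was called when its edgeR adjusted p was under 0.05 and the E16.5 value lay outside both P0 values on the same side. In surface endothelium 19.5% of 4821 genes were called, with 1 of the 4 Notch genes tested called lower at E16.5. In capillaries 20.8% of 5828 genes were called, with 3 of 7 Notch genes higher. In interstitial cells 24.6% of 5343 genes were called, with 2 of 5 Notch genes lower. Median log2 folds of the Notch genes tested were -0.21, 0.07 and -0.95, against -0.17, -0.27 and -0.09 over all genes. Members that reached the filter at a single stage were selected in part by their level there. These counts and medians are therefore no evidence on the pathway as a whole.

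The choice of scale matters for these folds. When library totals replaced TMM scaling, the median over all genes moved to -0.76 in the surface, -1.07 in capillaries and -0.59 in interstitial cells. Genes higher at E16.5 were 61.9% of those called in the surface with TMM and 27.2% with totals, 60.6% and 19.3% in capillaries, and 55.9% and 27.0% in interstitial cells. The levels per 10000 below are on the scale of totals and the log2 differences on that of TMM.

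Hes1, a repressor also known as an immediate target of other signals, stood at 0.665 per 10000 in the E16.5 surface (13 UMIs) and at 3.15 and 4.18 in the P0 replicates (95 and 96 UMIs; mean 3.67 ± 0.729, SD, n = 2). In interstitial cells it stood at 0.438 (16 UMIs) against 2.84 and 3.06 (109 and 55 UMIs; mean 2.95 ± 0.158, SD, n = 2). In capillaries it stood at 0.632 (12 UMIs) against 2.42 and 2.08 (110 and 69 UMIs). The E16.5 value was the lowest of the 3 libraries in each of these classes. Hes1 was not low throughout that library, since its unnamed cells held 22.4% of its Hes1 UMIs (13 of 58). They held 4.36% of all its kept UMIs. The log2 difference was -1.88 ± 0.46 in the surface (edgeR adjusted p = 0.0023) and -2.25 ± 0.45 in interstitial cells (adjusted p = 1.1e-05), and in capillaries -1.02 ± 0.40 was not called (adjusted p = 0.0898). With library totals the capillary difference was called too, at -1.83 (edgeR adjusted p = 0.0099). DESeq2's Wald test did not call the surface difference (adjusted p = 0.149) and called that of interstitial cells (0.0326).

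The summed level of 16 immediate early and heat shock genes that respond to tissue dissociation was also lower at E16.5 in each class. It came to 14.7 per 10000 in the E16.5 surface against 31.2 and 31.4 at P0, to 13.5 against 39.3 and 49.2 in capillaries, and to 29.6 against 85.5 and 94.0 in interstitial cells. Of its genes tested, 3 of 15, 6 of 16 and 9 of 16 were called lower at E16.5, with 1 of 16 higher in interstitial cells, where 19.5%, 20.8% and 24.6% of all genes were called. Its median log2 fold was 0.11 in the surface, above the -0.17 of all genes, and -0.93 in both other classes. These folds are on the TMM scale and the sums on that of library totals, so the fold and the sum are not directly comparable. Mitochondrially encoded transcripts summed to 531 per 10000 in the E16.5 surface against 400 and 368 at P0. The part of dissociation or RNA quality in the Hes1 differences was not tested.

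**Figure D4:**
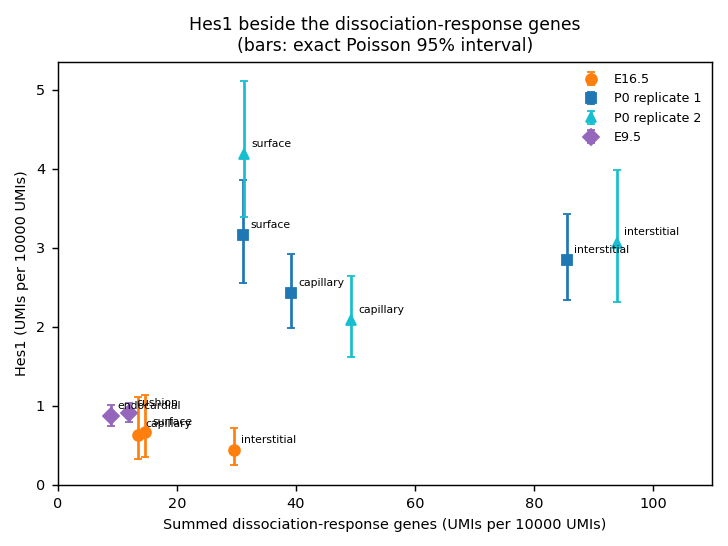
Hes1 level against the summed level of the 16 dissociation genes in the endocardial and cushion classes of E9.5 and the surface, capillary and interstitial classes of the valve libraries, both in UMIs per 10000 UMIs of the class; each point is 1 class of 1 library and bars are exact Poisson 95% intervals. Of the classes plotted, those of P0 sit at higher Hes1 (2.08 to 4.18) and higher dissociation sums than those of E16.5 and E9.5, while surface sums of P0 have the highest Hes1 and not the highest dissociation sum.

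In interstitial cells Notch2, like Hes1, was lower at E16.5. It stood at 0.383 per 10000 at E16.5 (14 UMIs) and at 1.64 and 2.95 at P0 (63 and 53 UMIs; mean 2.30 ± 0.927, SD, n = 2). The E16.5 value lay below both (log2 difference -2.02 ± 0.47, edgeR adjusted p = 0.00023), and DESeq2's Wald test did not call it (adjusted p = 0.154). Heyl stood at 0.274 against 0.834 and 0.613 in the same cells, a log2 difference of -0.95 ± 0.60 that was not called (edgeR adjusted p = 0.244). Notch1 was not called there, at 0.684 against 0.599 and 0.613 (log2 difference 0.68 ± 0.48, adjusted p = 0.304).

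In capillaries the ligand Dll4 stood at 0.580 per 10000 at E16.5 and, at P0, at 0.22 and 0.302 (11 against 10 and 10 UMIs; log2 difference 1.97 ± 0.56, edgeR adjusted p = 0.0234). Notch4 stood at 0.790 against 0.462 and 0.302 (15 against 21 and 10 UMIs; 1.82 ± 0.47, adjusted p = 0.0136). Hey1 stood at 0.738 against 0.308 and 0.211 (14 against 14 and 7 UMIs; 2.27 ± 0.50, adjusted p = 0.0052). All 3 E16.5 values lay above both P0 values. On the scale of library totals the differences were 1.17 for Dll4 and 1.01 for Notch4, no longer called (edgeR adjusted p = 0.125 and 0.121), and 1.46 for Hey1, still called (0.0486). By DESeq2's Wald test none was called (adjusted p = 0.640, 0.554 and 0.420).

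Surface endothelium showed no called change in the receptor or ligand between these stages. Notch1 stood at 1.02 per 10000 at E16.5 (20 UMIs) and at 2.16 and 1.87 at P0 (65 and 43 UMIs; mean 2.02 ± 0.200, SD, n = 2), a log2 difference on the TMM scale of -0.40 ± 0.41 (edgeR adjusted p = 0.549). Jag1 differed by 0.41 ± 0.72 (adjusted p = 0.745) and Hey2 by -0.03 ± 1.29 (adjusted p = 0.989). With standard errors this wide, changes of several fold in Hey2 could not be detected at this depth.

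**Figure D5:**
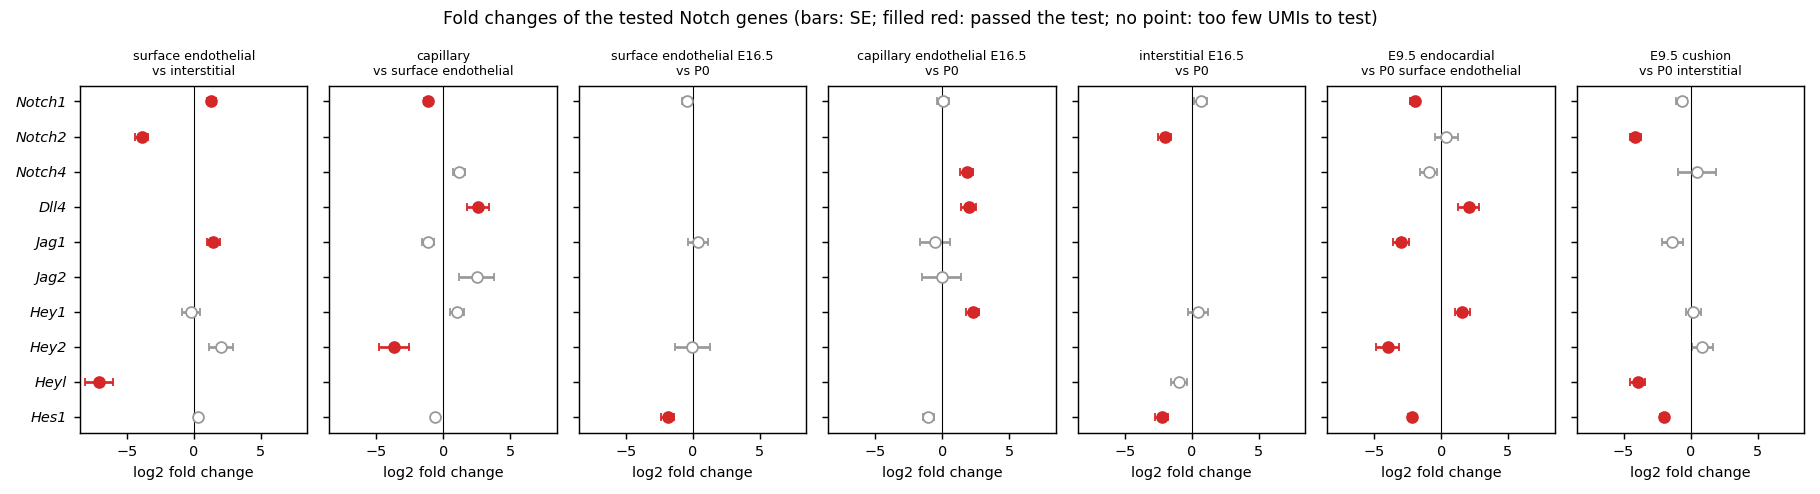
Log2 fold change ± SE (edgeR) of each tested Notch gene in the 7 comparisons, with filled points for called genes. In E16.5 against P0, Hes1 lies at -1.88 in the surface and -2.25 in interstitial cells, and Dll4, Notch4 and Hey1 lie at 1.97, 1.82 and 2.27 in capillaries.

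The E9.5 endocardium was compared with the surface endothelium of the P0 valve, which lines the leaflet of the newborn. Dll4 and Hey1 were higher at E9.5, and Notch1, Jag1, Hey2 and Hes1 were lower. Of 9517 genes tested, 31.3% were called, and of the 8 Notch genes tested 2 were called higher and 4 lower. Their median log2 fold was -1.45, against 0.10 over all genes. Members that reached the filter at a single stage were again selected in part by their level there. Dll4 and Hey1 reached it at E9.5 alone and Hey2 at P0 alone, so their p-values are not free of that choice. The count and median are no evidence on the pathway as a whole. This comparison uses the same P0 libraries as the last, and E9.5 and P0 differ in dissected tissue as well as age. With 1 residual degree of freedom, the spread was pooled over all genes. A small p-value here does not measure how a gene varies between libraries of 1 stage.

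Dll4 stood at 0.254 per 10000 at E9.5, with 3 and 0 UMIs in the P0 surface (log2 difference 2.05 ± 0.82, edgeR adjusted p = 0.0400). Its fold was 1.29 without P0 replicate 2, on the log2 scale and with no test, and cannot be stated without P0 replicate 1, since replicate 2 held 0 UMIs. Hey1 stood at 0.543 against 0.199 and 0.131 (1.58 ± 0.54, adjusted p = 0.0143). Notch1 stood at 0.548 against 2.16 and 1.87 (-1.98 ± 0.34, adjusted p = 9e-08), and Jag1 at 0.0685 against 0.597 and 0.436 (-3.0 ± 0.56, adjusted p = 1.5e-06). Hey2 stood at 0.0196 against 0.398 and 0.218 (-3.99 ± 0.87, adjusted p = 4.8e-05), and Hes1 at 0.866 against 3.15 and 4.18 (-2.17 ± 0.32, adjusted p = 3.3e-10). In each of these the E9.5 value lay outside both P0 values. Cushion cells of E9.5, which also held endothelial markers, were not part of this comparison. They held 10.1 times the endocardial Hey2 and 0.103 times the endocardial Dll4. The Hey2 and Dll4 differences therefore hold for the endocardial class only. Notch2 (0.37 ± 0.86) and Notch4 (-0.92 ± 0.63) were not called. DESeq2's Wald test called Hes1 (adjusted p = 0.0201) and none of the other 5 (adjusted p 0.164 to 1.00). The dissociation list summed to 8.88 per 10000 in the E9.5 endocardium, and 12 of its 15 tested genes were called lower at E9.5; its part in the Hes1 difference was not tested.

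The E9.5 cushion cells were compared with P0 interstitial cells, the fibroblast-like cells within the leaflet. Of 9806 genes tested, 22.6% were called, and of the 8 Notch genes tested 3 were called lower at E9.5 and none higher (median log2 fold -1.02, against 0.11 over all genes). The limits of the filter and of the pooled spread given for the endocardium hold here too. Genes higher at E9.5 were 46.6% of those called with TMM and 63.0% with library totals, where the median over all genes was 0.38. Notch2 stood at 0.149 per 10000 in the cushion (34 UMIs) against 1.64 and 2.95 at P0 (log2 difference -4.14 ± 0.41, edgeR adjusted p = 1.7e-22). Heyl stood at 0.0568 (13 UMIs) against 0.834 and 0.613 (-3.95 ± 0.57, adjusted p = 2.1e-10). Hes1 stood at 0.905 against 2.84 and 3.06 (-1.97 ± 0.31, adjusted p = 7.3e-09). All 3 lay below both P0 values and were called in all 9 settings run. Hey2, at 0.197 against 0.104 and 0.0557, was not called (0.88 ± 0.78, adjusted p = 0.473), and nor were Notch1 (-0.68 ± 0.43), Notch4, Jag1 and Hey1. All 15 dissociation genes tested were lower in the cushion, where the list summed to 11.9 per 10000; its part in the Hes1 difference was not tested. The cushion class also held the endothelial list at 27.6 per 10000, against 6.62 and 6.02 in P0 interstitial cells.

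Of 50 other Notch pathway genes, listed with earlier results known, 22 to 38 passed the filter in a comparison. The limit of the filter given for the members holds for the counts, medians and p-values of these genes too. Between surface and interstitial cells 28 were tested, with 5 higher and 1 lower and a median log2 fold of 0.29, against -0.02 over all genes; 20.1% of all genes were called. The largest were Nrarp, a feedback target that was higher in the surface by 2.62 ± 0.66 on the log2 scale (edgeR adjusted p = 0.0028), Adam10, the protease that makes the first cut in the receptor (1.63 ± 0.30, adjusted p = 5.8e-05), and Ep300, a coactivator (1.49 ± 0.55, adjusted p = 0.0465). Between capillary and surface endothelium 26 were tested (median -0.19, against 0.01 over all genes) and 2 called, where 12.8% of all genes were: Mfng, a fringe enzyme that glycosylates the receptor (2.79 ± 0.45, adjusted p = 1.8e-08), and Nrarp (1.26 ± 0.33, adjusted p = 0.0020). Mfng stood at 0.474, 1.30 and 1.06 per 10000 in capillaries of the E16.5 and P0 libraries and at 0.153, 0.133 and 0.131 in the surface. Nrarp stood at 0.685, 1.52 and 1.03 in capillaries and 0.205, 0.564 and 0.567 in the surface. Both were higher in capillaries in every library, without overlap. Of these, DESeq2's Wald test called Mfng (adjusted p = 0.0106) and Adam10 (0.0154) and not Nrarp (0.269 and 0.108) or Ep300 (0.419).

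Between E16.5 and P0, 2 of 22 pathway genes were called higher at E16.5 in the surface, 2 of 24 higher and 1 lower in capillaries, and 3 of 23 higher and 2 lower in interstitial cells. Their median log2 folds were -0.07, -0.48 and 0.21, beside the medians of all genes given above, and the shares of all genes called were 19.5%, 20.8% and 24.6%. Dlk1, a non-canonical Delta-like ligand, had a level of 2.0 per 10000 in the E16.5 surface (39 UMIs), with 0.199 and 0.0436 in the P0 replicates (log2 difference 4.50 ± 0.54, edgeR adjusted p = 2.6e-08), and at 2.71 in interstitial cells against 0.730 and 0.279 (2.76 ± 0.39, adjusted p = 5.5e-11). It was called by DESeq2's Wald test in both (adjusted p = 0.00082 and 0.0054). Parts of the gamma-secretase that makes the last cut moved in opposite directions. Psenen was higher at E16.5 by 1.39 ± 0.33 in the surface and 1.82 ± 0.31 in capillaries, and Aph1a was lower by -3.31 ± 0.83 in capillaries and -1.80 ± 0.67 in interstitial cells. The other genes with the largest folds were the corepressor Hdac1 in capillaries (1.56 ± 0.45) and Dtx3 in interstitial cells (-1.74 ± 0.64). Of these genes other than Dlk1, DESeq2's Wald test called only Psenen in capillaries (adjusted p = 0.0292), and not Psenen in the surface (0.139), Aph1a (0.481 and 0.662), Hdac1 (0.625) or Dtx3 (0.671).

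Against the P0 surface, 3 of 36 pathway genes were higher and 9 lower in the E9.5 endocardium, among them the gamma-secretase part Aph1b (-2.10 ± 0.78) and Poglut1 (1.98 ± 0.72), which adds glucose to the receptor. The median of the 36 was -0.65, against 0.10 over all genes, of which 31.3% were called. Against P0 interstitial cells, 4 of 38 were higher and 6 lower in the cushion, among them Hes7 (3.61 ± 1.06) and the coactivator Kat2b (-3.29 ± 1.01), and their median was -0.45, against 0.11 over all genes, of which 22.6% were called. DESeq2's Wald test called 0 of the pathway genes in either comparison. A second Delta-like ligand, Dll1, followed Dll4 at E9.5, with 25 UMIs in the endocardium (0.122 per 10000), 1 in the cushion and 1 in cardiomyocytes. In the valve it was in the surface at 0.358, 0.299 and 0.131 (7, 9 and 3 UMIs), in capillaries at 0, 0.0660 and 0.0905, and at 0 UMIs in interstitial cells of all 3 libraries. Notch3, the receptor of mural cells, stood at 0.109, 0.339 and 0.0557 in valve interstitial cells (4, 13 and 1 UMIs). It was not particular to them, at 0, 0.176 and 0.0905 in capillaries and 0.102, 0 and 0.0436 in the surface. Rbpj, the DNA-binding partner of all receptors, stood between 0.121 and 0.446 per 10000 in every valve surface, capillary and interstitial sum.

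The genes with the pattern most like each Notch gene were taken over 16 class sums of at least 20 cells (Pearson r of log2 of UMIs per 10000 plus 0.1). The sums share libraries and depth, so r is a description. Among them is the macrophage-named cluster of P0 replicate 1, which also held endothelial markers. Notch1 was most like Elk3 (r = 0.963), Klf2 (0.960) and Nid1 (0.949), of which Klf2 is a transcription factor of endothelium under flow. Dll4 was most like Aplnr, the apelin receptor (0.937), Pde2a (0.914) and Sh3bgrl2 (0.908), and Notch4 was most like Fam167b (0.966), Myct1 (0.956) and Dnah2os (0.95). The interstitial pair shared a neighbour. Notch2 was most like Tceal3 (0.945), Dpysl4 (0.938) and Scara3 (0.933), and Heyl like Adamts19 (0.978), Tceal3 (0.974) and Adamts2 (0.972), the Adamts genes encoding secreted proteases. Hes1 was most like Zfp637 (0.958), Arrdc3 (0.931) and Stxbp6 (0.928). Likeness was lower for Jag1, led by Fbxo30 (0.844), Abl1 (0.815) and Plxna4 (0.813), and for Hey2, led by Tmem150a (0.832), Serpinb9b (0.813) and Brat1 (0.800). Hey1 was most like Emc4 (0.913), Aprt (0.877) and Mmgt2 (0.839), and Jag2 had too few UMIs to be compared.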

How the data were processed

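Droplet 3' single-cell libraries (10x, NextSeq 500) were analysed from the deposited matrices, which hold whole-number UMI counts per gene and cell. Per the submitters' processing notes the authors used Cell Ranger 2.1.1 and mm10. Not given in the sources used here were the counting settings, strand use and any doublet removal. Genes were matched by Ensembl identifier. Barcode lists were not used, since the E9.5 and E16.5 lists hold every possible barcode and the lists of the P0 pair appear exchanged; shared barcodes could not be counted.

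Cells with at least 500 genes and at most 10% mitochondrial UMIs were kept. At E16.5, 105 cells were under the first limit and 65 over the second, and these groups overlap. Cells with a scrublet doublet score over 0.19, a cut set after the automatic threshold proved unstable, were removed (7, 6, 1 and 2). Each library was clustered alone (scanpy 1.11.5, 2000 variable genes, 20 components, 15 neighbours, Leiden resolution 1.0, seed 0), without the 10 Notch genes and 50 other pathway genes. Clusters were named from marker lists, by thresholds set after the clusters were seen. UMIs were summed per library and class, and genes with at least 10 UMIs in 1 sum were tested with edgeR 4.0.16 (quasi-likelihood, TMM; R 4.3.3) with Benjamini-Hochberg adjustment; DESeq2 1.42.0 was an alternative. Class comparisons had library as a block; stage comparisons rested on the P0 pair. On simulated counts the test of surface against interstitial cells recovered 79.3% of genes changed by 2 on the log2 scale, and that of E16.5 against P0 interstitial cells 25.9%. The alternatives were other scalings, tests, filters, clusterings and leaving out each library.

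The members and gene lists were chosen with earlier results of these data known. All 10 members were named, the pathway genes Notch3, Dll1, Lfng, Rbpj and Nrarp, the 3 called pathway genes with the largest folds in each comparison (1 such gene is not reported here), and for each member with 50 UMIs the 3 genes most like it. Lfng reached 14 UMIs in the epicardial class and 8 or fewer in any other. Comparisons of pericytes were not run, since 5 such cells were found.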

Additional observations from a re-analysis of the deposited data

How the results depend on the processing

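No paired analysis was possible because, between stages, E9.5 and E16.5 have 1 library each. Classes within a library were compared with the library as a block, and without the library block 2 Notch genes were called between surface and interstitial cells (4 with it) and 0 between capillary and surface endothelium (3 with it), with 1 other pathway gene in each (6 and 2 with it). DESeq2's Wald test called fewer. It called 0 Notch genes in the surface and 0 in capillaries between E16.5 and P0 (1 and 3 by edgeR), 1 in interstitial cells (2), 1 in the E9.5 endocardium (6), 2 in surface against interstitial cells and 0 in capillary against surface; of other pathway genes it called 1, 1, 1 and 0, then 0 in the cushion (10), 1 and 1. Leaving out each library gave 2 to 4 Notch genes and 1 to 5 pathway genes in surface against interstitial cells, and 0 to 3 and 1 to 3 in capillary against surface; for stages this left no residual degrees of freedom and no test. Pathway genes called in the surface between stages were 4 with library totals and 4 at Leiden resolution 1.5 (2 in the main test). In interstitial cells (5) they were 3 with totals, 2 with no filter, 3 with a filter on CPM chosen after seeing the data, 3 with at least 300 genes per cell and 3 with dissociation genes left out of clustering, and in the cushion 6 with the CPM filter. The cause was not tested.

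Signs turned for genes that were never called, between E16.5 and P0. In the surface Jag1 was -0.18 with totals, and Hey2 was 0.04 with DESeq2 size factors, 0.07 by DESeq2, 0.03 with the Notch genes kept in clustering, 0.02 with 300 genes per cell and 0.01 without dissociation genes. In capillaries Notch1 was -0.74 with totals, -0.23 with no filter, -0.05 with the CPM filter, -0.10 at resolution 1.5 and -0.04 with 300 genes per cell, and Jag2 was 0.04 with size factors, 0.06 by DESeq2 and 0.25 at resolution 1.5. Hey1 in interstitial cells was -0.05 with totals. Few UMIs limit every class sum of the valve: the floor of 3 UMIs came to 0.153 per 10000 in the E16.5 surface.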
